A study of Mus musculus with 9 samples.

Results

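Neutrophil granule and surface genes were followed in bone marrow stromal cells sorted from mice after granulocyte colony-stimulating factor (G-CSF) treatment. The set is a list of 38 genes, chosen by name with earlier results of these data known. It covers proteins of neutrophil granules, cytosol and surface and transcription factors of granulocyte development. Probe sets of the array whose only gene symbol is one of these names were taken, which gave 35 probe sets for 35 genes out of 21789 probe sets with 1 symbol. Fpr1 and Fpr2 had no such probe set, and Stfa1 had only a probe set shared with other symbols. No filter on low values was applied, so all 35 were tested.

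The series sorted lineage-negative cells with bright green fluorescent protein from marrow of Cxcl12+/gfp mice, in which that protein is inserted in the gene for the chemokine Cxcl12. These cells are CXCL12-abundant reticular (CAR) cells, and both groups carry the allele. The G-CSF group (5 arrays) received 250 µg/kg per day and the PBS group (4 arrays) received phosphate-buffered saline, each over 5 days, and RNA was amplified and hybridised to Affymetrix Mouse Gene 1.0 ST arrays. The ages of the mice, the antibodies of the lineage panel and the animals or pools behind each array are not given in the sources used here, so every p-value rests on the spread from array to array, part of which may be technical. GEO source names mention colonies of pre-B cells, with an Hspa9+/- genotype on G-CSF replicates 2 to 5 and wild type on the other arrays. Titles, treatments and protocols contradict those source names, and groups follow the titles.

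Neutrophils store antimicrobial proteins in granules made in sequence during maturation. Primary (azurophilic) granules are made first, by promyelocytes, and hold myeloperoxidase and serine proteases; secondary and tertiary granules follow and hold lactoferrin, cathelicidin and gelatinase; receptors such as Cxcr2 and late cytosolic proteins appear in mature cells. G-CSF acts on the receptor Csf3r of the granulocyte lineage, raises neutrophil output and drives stem cells and neutrophils out of the marrow. A lineage-negative stromal sort is meant to hold few granulocytes, and mRNA of primary granule proteins is largely confined to immature cells.

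Levels below are log2 of the deposited RMA intensity per probe set, as mean ± SD over arrays, and a change is the G-CSF mean less the PBS mean of these log2 levels, given with its standard error (SE) from limma fitted to all 21789 probe sets. A gene is said to have risen where the Benjamini-Hochberg adjusted p over all of them was under 0.05. Array medians of the linear values lay between 34.72 and 37.24. The first principal component (34.9% of the variance) divided the arrays into a set 1 (G-CSF replicates 1 to 3 with PBS replicates 1 and 2) and a set 2 of the other 4 arrays. The labels name no batch, and this split comes from the values alone. Fits with the array set as a block use a split drawn from the same values, so their p-values may be too small. PBS replicate 3 stood apart, at 56.5 on that component against 22.5 for the next array. As a description, 15 CAR cell markers had a summed linear intensity of 28300 to 31703 in PBS and 18142 to 19763 in G-CSF. Of the 15, 9 fell, against 0.877% of all probe sets, and 6 did not pass, among them Cxcl12 (-0.36) and Lepr (-0.22). Whether the cells sorted or their expression changed was not tested, so this is no check of the sort.

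All 35 genes were higher on average after G-CSF, by a median of 0.99, where the median over all probe sets was 0.01 and 51.3% of them were above 0. At the threshold 6 genes rose, 0 fell and 29 did not pass, with 0.743% of all probe sets called as risen, 0.877% as fallen and 1.62% in either direction. The genes that rose were the protease inhibitors Stfa3 and Stfa2, the gelatinase Mmp9, the surface protein Cd177, the Fc receptor Fcgr4 and the G-CSF receptor Csf3r. At an unadjusted p under 0.05, 24 of the 35 were higher, against 4.41% of all probe sets. Every G-CSF array lay above every PBS array for 9 genes, against 2.18% of all probe sets. Because the list was chosen with earlier results known, these counts are a description. All 35 changes were also above 0 after a further quantile normalisation and after median centring of the arrays, and 33 were with array weights, where Camp and Ly6g were below 0. Which cells of the sort gave this RNA was not tested. In bulk samples, more granulocytes, more RNA per granulocyte and RNA from other sorted cells cannot be told apart.

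**Figure D1:**
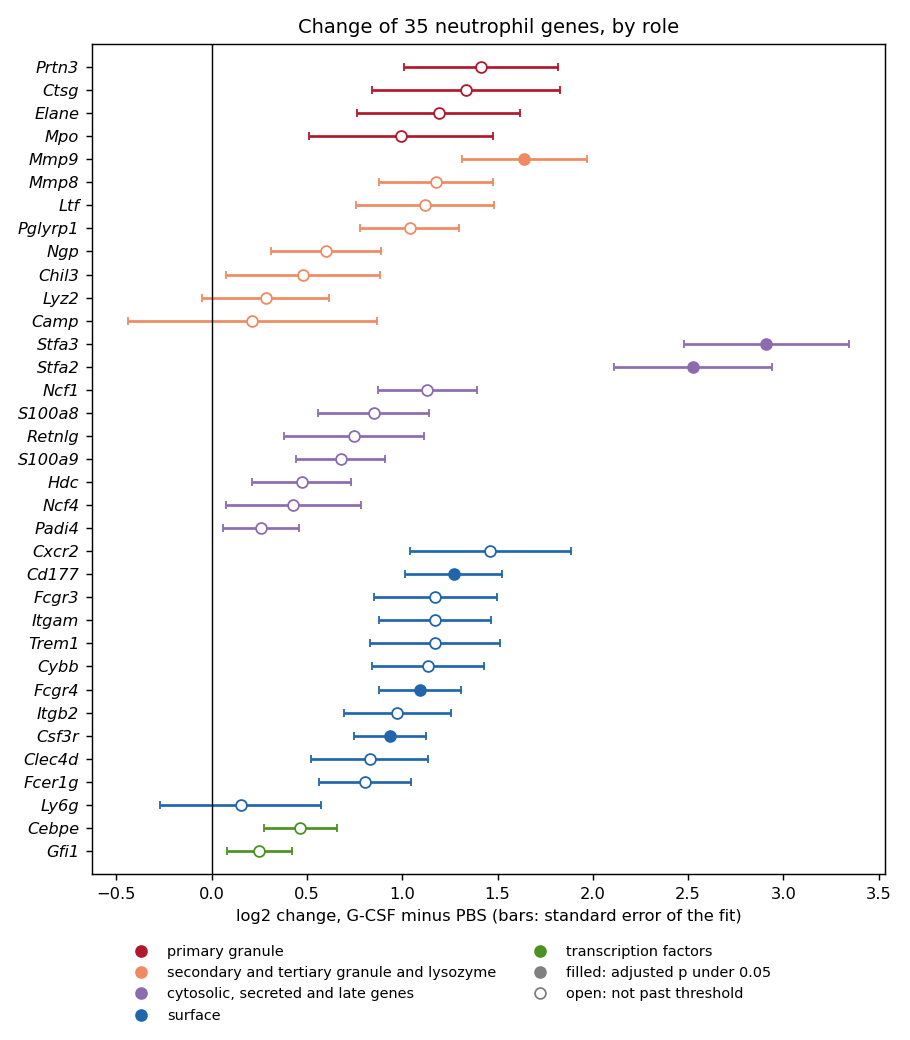
Log2 change (G-CSF minus PBS) of each of the 35 genes, in 5 role groups by colour, with the standard error of the limma fit as bars. Filled points are the 6 genes with an adjusted p under 0.05, and all 35 points lie above 0, from 0.15 (Ly6g) to 2.91 (Stfa3).

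The PBS arrays differed widely from each other. PBS replicate 2 was the highest PBS array for 28 of the 35 genes and PBS replicate 1 the lowest for 24. In G-CSF, replicate 2 was the lowest array for 24 genes. PBS replicate 2 exceeded at least 1 G-CSF array for 25 genes, the G-CSF mean for 15 and every G-CSF array for 5 (Ctsg, Hdc, Chil3, Lyz2 and Camp). The SD over PBS arrays was the larger of the 2 groups' SDs for 26 genes. The count of genes that rose depended on single arrays: it was 2 without PBS replicate 1, 13 without PBS replicate 2, 4 without PBS replicate 3 and 3 without PBS replicate 4, where 0.482%, 0.610%, 0.565% and 0.537% of all probe sets rose. Without G-CSF replicates 1 to 5 in turn it was 2, 9, 5, 2 and 3, where 0.514%, 0.716%, 0.514%, 0.514% and 0.509% of all probe sets rose. The 13 came with the loss of the array that was highest in PBS for most of the list, so that count is a description.

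**Figure D2:**
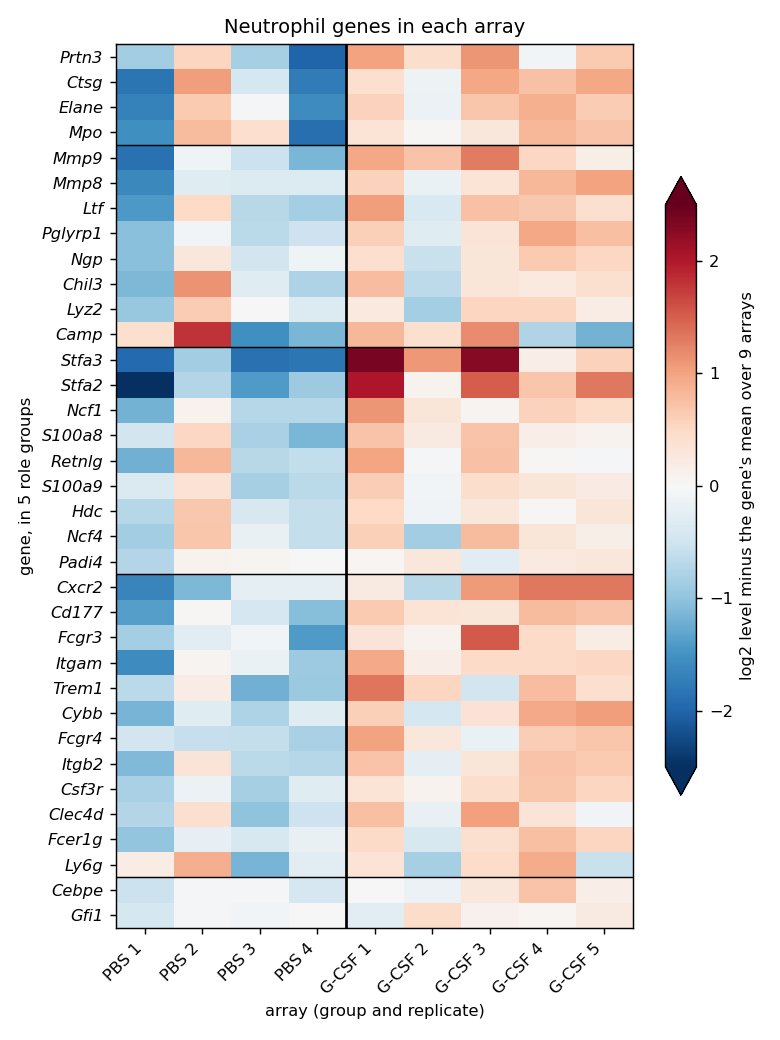
Level of the 35 genes in each of the 9 arrays, as log2 level minus the gene's mean over all arrays (blue lower, red higher; the colour scale ends at 2.5 below and above). Columns are arrays, rows are genes in the 5 role groups, and the vertical line parts PBS from G-CSF. PBS replicate 2 is the highest PBS column for 28 genes, and PBS replicate 1 is the lowest array for 23 genes.

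None of the 4 primary granule genes passed the threshold, although their median change of 1.26 was the largest of the 5 role groups in the fit over all arrays. Prtn3, proteinase 3, was at 6.80, 8.20, 6.84 and 5.66 in PBS replicates 1 to 4 and 8.67, 8.11, 8.76, 7.60 and 8.31 in G-CSF replicates 1 to 5. Its group means were 6.88 ± 1.04 (n = 4) in PBS and 8.29 ± 0.47 (n = 5) in G-CSF, a change of 1.41 (SE 0.41, limma adjusted p = 0.145). PBS replicate 2 reached the G-CSF range, and 3 G-CSF arrays lay above it. Elane, neutrophil elastase, was at 5.95, 8.29, 7.59 and 6.07 in PBS replicates 1 to 4 and 8.21, 7.49, 8.33, 8.53 and 8.28 in G-CSF replicates 1 to 5. PBS replicate 2 was level with the G-CSF arrays, PBS replicates 1 and 4 lay below all of them, and the change was 1.19 (SE 0.43, adjusted p = 0.310).

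Mpo, myeloperoxidase, which makes hypochlorous acid, was at 7.15, 9.48, 9.11 and 6.80 in PBS replicates 1 to 4 and 9.03, 8.72, 8.97, 9.52 and 9.41 in G-CSF replicates 1 to 5. PBS replicates 2 and 3 lay inside the G-CSF range and PBS replicates 1 and 4 below it. The PBS spread of Mpo (SD 1.36, n = 4) was larger than the change of 0.99 (SE 0.48, adjusted p = 0.588). Ctsg, cathepsin G, had a difference of 1.33 that did not pass (adjusted p = 0.338), and PBS replicate 2 was its highest array. Without PBS replicate 2, Prtn3 (1.85, adjusted p = 0.0175) and Ctsg (1.93, adjusted p = 0.0203) passed, while without PBS replicate 4 the adjusted p was 0.319 for Prtn3 and 0.638 for Ctsg. The summed linear intensity of the 4 genes was 262 to 1551 in PBS and 978 to 1526 in G-CSF, so the groups overlapped.

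Of 8 genes of secondary and tertiary granules and lysozyme, 1 rose and 7 did not pass, with a median change of 0.82. Mmp9, the gelatinase of tertiary granules, rose 3.12-fold. It was at 5.32, 7.08, 6.65 and 6.05 in PBS replicates 1 to 4 and 8.16, 7.90, 8.48, 7.71 and 7.33 in G-CSF replicates 1 to 5. All G-CSF arrays lay above all PBS arrays, and the change was 1.64 (SE 0.33, limma adjusted p = 0.0257), 1.98 in set 1 and 1.17 in set 2. The call was lost without any 1 of PBS replicate 1 or 4 or G-CSF replicate 1, 2, 3 or 4, at adjusted p up to 0.0792 (without PBS replicate 4). It was also lost with 16 added to each linear value before the log (a pseudocount of 16).

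Pglyrp1, a peptidoglycan-binding antibacterial protein, was at 7.90, 8.89, 8.27 and 8.43 in PBS replicates 1 to 4 and 9.54, 8.65, 9.27, 9.91 and 9.71 in G-CSF replicates 1 to 5. G-CSF replicate 2 lay below PBS replicate 2, the other G-CSF arrays lay above all PBS arrays, and the change was 1.04 (SE 0.26, adjusted p = 0.0813; 0.0226 without G-CSF replicate 2 and 0.235 without PBS replicate 1). Ltf, lactoferrin, the iron-binding protein that defines secondary granules, was at 7.25, 9.18, 7.99 and 7.82 in PBS replicates 1 to 4 and 9.72, 8.29, 9.42, 9.36 and 9.08 in G-CSF replicates 1 to 5. Its change of 1.12 (SE 0.36) did not pass (adjusted p = 0.225; 0.0368 without PBS replicate 2 and 0.483 without PBS replicate 1). Mmp8, neutrophil collagenase, had every G-CSF array above every PBS array, and its difference of 1.18 did not pass (adjusted p = 0.0876, 0.0157 with the array set as a block and up to 0.195 without G-CSF replicate 5).

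Camp, the cathelicidin precursor made in the same stage as Ltf, was at 9.30, 10.70, 7.36 and 7.75 in PBS replicates 1 to 4 and 9.73, 9.29, 10.08, 8.15 and 7.71 in G-CSF replicates 1 to 5. The highest array was PBS replicate 2, and the change was 0.21 (SE 0.65, adjusted p = 0.982), -0.30 in set 1, 0.38 in set 2 and -0.51 with array weights. Lyz2, lysozyme M of granules and macrophages, was at 9.13, 10.71, 10.09 and 9.73 in PBS replicates 1 to 4 and 10.31, 9.22, 10.61, 10.61 and 10.25 in G-CSF replicates 1 to 5. Its groups overlapped, with a change of 0.28 (SE 0.33, adjusted p = 0.935). The other 2 genes of the group, Ngp (neutrophilic granule protein, 0.60) and Chil3 (a chitinase-like lectin, 0.48), had adjusted p of 0.577 and 0.871.

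The largest changes of the whole list were those of 2 stefins, small cytosolic inhibitors of cysteine proteases that mouse granulocytes make in quantity. Stfa3 was at 3.71, 4.79, 3.78 and 3.85 in PBS replicates 1 to 4 and 8.03, 6.73, 7.92, 5.82 and 6.22 in G-CSF replicates 1 to 5. The PBS arrays were near 4 except for replicate 2, every G-CSF array was higher, and Stfa3 rose 7.51-fold, from 4.03 ± 0.51 to 6.94 ± 0.99 (change 2.91, SE 0.43, limma adjusted p = 0.00431). Stfa2 was at 3.29, 5.10, 4.43 and 4.94 in PBS replicates 1 to 4 and 7.86, 5.92, 7.35, 6.53 and 7.15 in G-CSF replicates 1 to 5. It rose 5.75-fold (change 2.52, SE 0.41, adjusted p = 0.00828), and again no PBS array reached a G-CSF array. Both calls held whichever array was left out, at adjusted p up to 0.0206 and 0.0262. In set 1 alone Stfa3 passed (adjusted p = 0.0201) and Stfa2 did not (0.107). The changes were 3.31 and 2.85 in set 1 and 2.21 and 2.16 in set 2.

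Stefin genes of this family lie near each other on mouse chromosome 16 and are close in sequence, and how far their probe sets share signal was not tested. The 250 bases before the start of Stfa1, Stfa2 and Stfa3 are shown to let their likeness be seen (RefSeq, build GRCm38.p6, 5′ to 3′ on the gene's strand). They lie at chr16:36276898-36277147 (+), chr16:36408364-36408613 (-) and chr16:36455393-36455642 (-). Capitals mark bases that are the same in all 3 after alignment.
Stfa1: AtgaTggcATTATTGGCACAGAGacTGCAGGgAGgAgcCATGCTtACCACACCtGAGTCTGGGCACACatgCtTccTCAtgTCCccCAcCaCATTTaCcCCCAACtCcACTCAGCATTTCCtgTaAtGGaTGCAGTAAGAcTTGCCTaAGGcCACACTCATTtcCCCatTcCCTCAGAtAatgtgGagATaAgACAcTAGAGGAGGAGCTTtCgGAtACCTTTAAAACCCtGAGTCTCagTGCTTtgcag
Stfa2: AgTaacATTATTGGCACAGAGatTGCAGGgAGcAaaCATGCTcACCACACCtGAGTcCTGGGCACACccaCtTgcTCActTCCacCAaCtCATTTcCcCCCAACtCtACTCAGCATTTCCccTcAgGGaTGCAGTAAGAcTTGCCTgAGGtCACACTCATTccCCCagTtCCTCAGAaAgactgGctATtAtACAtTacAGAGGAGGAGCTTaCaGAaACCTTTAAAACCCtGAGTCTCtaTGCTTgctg
Stfa3: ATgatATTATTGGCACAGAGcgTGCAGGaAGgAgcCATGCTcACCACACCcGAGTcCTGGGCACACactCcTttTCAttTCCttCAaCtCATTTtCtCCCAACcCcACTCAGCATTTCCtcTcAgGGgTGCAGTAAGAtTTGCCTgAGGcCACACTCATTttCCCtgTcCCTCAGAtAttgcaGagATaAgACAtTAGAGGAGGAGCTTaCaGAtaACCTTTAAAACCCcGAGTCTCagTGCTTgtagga
Stfa2 and Stfa3 shared 79.1% of aligned positions, Stfa1 and Stfa2 80.6%, and Stfa1 and Stfa3 81.8%, and 72.5% of positions were the same in all 3. These are upstream bases and not the probes, whose sequences were not used here.

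The other 7 genes of the cytosolic, secreted and late group did not pass, and the group of 9 had a median change of 0.75 (1.16 without PBS replicate 2). S100a8, which with S100a9 forms the calcium-binding protein calprotectin, was at 11.68, 12.65, 11.31 and 10.99 in PBS replicates 1 to 4 and 12.84, 12.35, 12.84, 12.29 and 12.22 in G-CSF replicates 1 to 5. S100a9 was at 11.53, 12.24, 11.05 and 11.21 in PBS replicates 1 to 4 and 12.49, 11.81, 12.33, 12.19 and 12.09 in G-CSF replicates 1 to 5. For both genes PBS replicate 2 lay inside the G-CSF range and the other PBS arrays below it. The changes were 0.85 (SE 0.29, limma adjusted p = 0.269) and 0.68 (SE 0.23, adjusted p = 0.273), and without PBS replicate 2 both passed, at 0.0248 and 0.0448. Without PBS replicate 4 their adjusted p was 0.562 and 0.534. Ncf1, a cytosolic subunit of the NADPH oxidase, had a difference of 1.13 that missed the threshold (adjusted p = 0.0512, 0.0402 with the set as a block and up to 0.156 without PBS replicate 1). Retnlg, a resistin-like secreted protein (0.75), Hdc, which makes histamine (0.47), Ncf4, another oxidase subunit (0.43), and Padi4, which converts arginine to citrulline in histones (0.26), had adjusted p between 0.591 and 0.866.

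Among 12 surface genes 3 rose and 9 did not pass, with a median change of 1.11. Csf3r, the receptor for G-CSF itself, was at 5.99, 6.65, 5.96 and 6.49 in PBS replicates 1 to 4 and 7.13, 6.88, 7.23, 7.48 and 7.32 in G-CSF replicates 1 to 5. Every G-CSF array lay above every PBS array, and Csf3r rose 1.91-fold (change 0.94, SE 0.19, limma adjusted p = 0.0262). Cd177, a glycoprotein of the neutrophil surface, was at 6.16, 7.57, 7.13 and 6.48 in PBS replicates 1 to 4 and 8.20, 7.88, 7.85, 8.34 and 8.26 in G-CSF replicates 1 to 5. It rose 2.41-fold, again without overlap (change 1.27, SE 0.26, adjusted p = 0.0274). Fcgr4, an activating receptor for IgG, was at 4.12, 3.99, 3.98 and 3.77 in PBS replicates 1 to 4 and 5.59, 4.86, 4.41, 5.18 and 5.27 in G-CSF replicates 1 to 5. The PBS arrays lay within a narrow range and all G-CSF arrays above it, a 2.14-fold rise (change 1.09, SE 0.21, adjusted p = 0.0235). Those PBS levels were below the median of every array, and the call was lost with a pseudocount of 16.

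These 3 calls were lost when single arrays were left out. Csf3r lost its call without any 1 of PBS replicate 1 or 3 or G-CSF replicate 1, 3, 4 or 5 (adjusted p up to 0.0886, without PBS replicate 1). Cd177 lost it without any 1 of PBS replicate 1 or 4 or G-CSF replicate 1, 4 or 5 (up to 0.0885, without PBS replicate 4). Fcgr4 lost it without any 1 of PBS replicate 1, 2, 3 or 4 or G-CSF replicate 1, 4 or 5 (up to 0.0764, without PBS replicate 4). All 3 passed with the array set as a block. None of them passed in either set alone, or with G-CSF replicates 4 and 5 averaged, where the adjusted p was 0.0674 for Csf3r, 0.0699 for Cd177 and 0.0624 for Fcgr4.

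**Figure D3:**
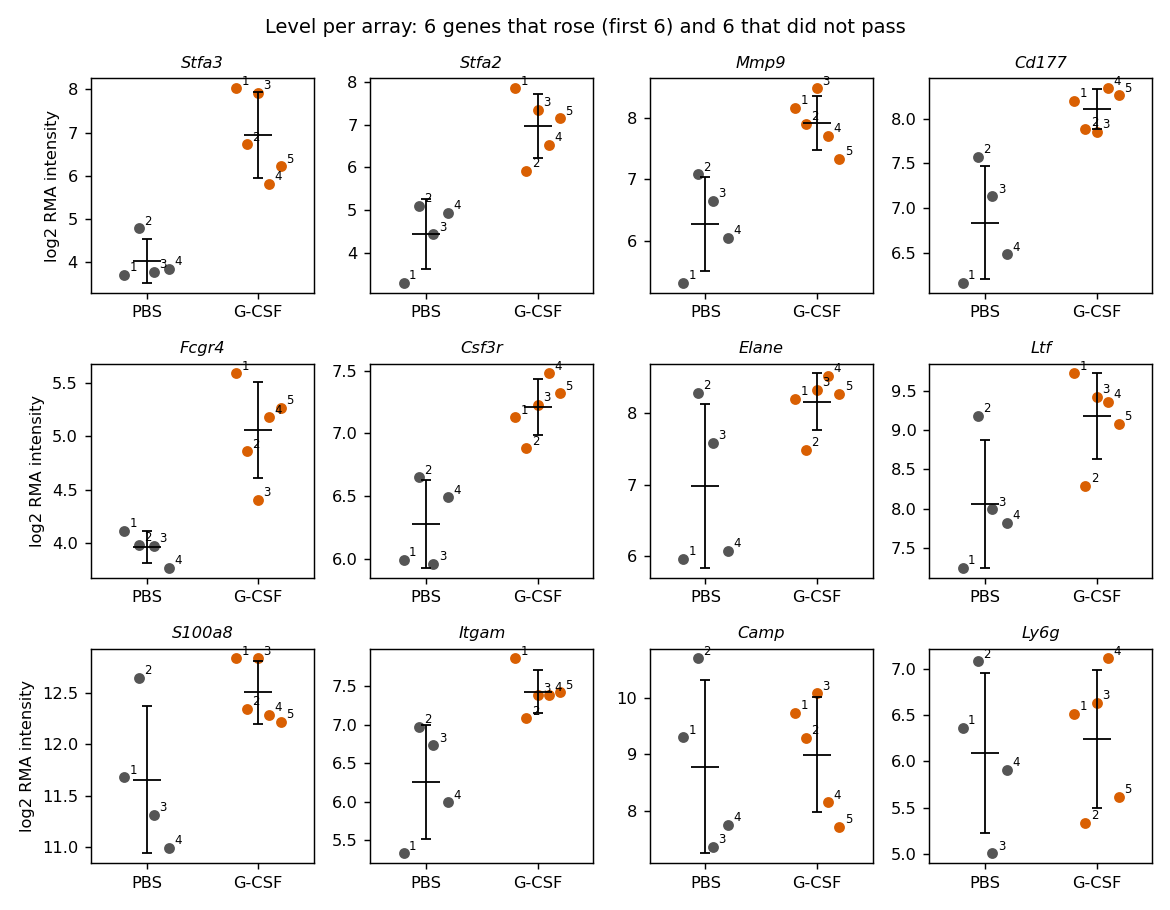
Log2 RMA intensity in each array for 12 genes, PBS (grey, 4 arrays) and G-CSF (orange, 5 arrays), with replicate numbers beside the points and mean ± SD in black; each panel has its own axis. In the first 6 panels, the genes that rose, the groups do not overlap; in the other 6 PBS replicate 2 lies close to, within or above the G-CSF arrays.

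Itgam, the CD11b integrin chain that lineage panels often include, was at 5.33, 6.97, 6.73 and 5.99 in PBS replicates 1 to 4 and 7.86, 7.08, 7.38, 7.39 and 7.42 in G-CSF replicates 1 to 5. All G-CSF arrays lay above all PBS arrays, but the change of 1.17 (SE 0.29) did not pass (limma adjusted p = 0.0825; 0.0367 without PBS replicate 2 and 0.220 without PBS replicate 4). Its partner chain Itgb2 had a difference of 0.97 (adjusted p = 0.148). Another 3 probe sets, assigned by the platform to both Rpl35 and Itgam, had differences of 0.60 to 0.63 with overlapping groups. Their limma adjusted p was 0.904 to 0.923 over 35553 probe sets, and which gene gave their signal was not tested. Ly6g, the antigen of the granulocyte antibody 1A8, was at 6.36, 7.08, 5.01 and 5.91 in PBS replicates 1 to 4 and 6.51, 5.34, 6.63, 7.11 and 5.62 in G-CSF replicates 1 to 5. Its groups overlapped, with a change of 0.15 (SE 0.42, adjusted p = 0.981), -0.56 in set 1, 0.90 in set 2 and -0.18 with array weights. Ly6g has close relatives in its gene family, whose share in its signal was not tested.

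Cxcr2, a chemokine receptor of mature neutrophils, had the largest change of the surface group at 1.46 without passing (SE 0.42, adjusted p = 0.148). It passed with the array set as a block (0.00897) and in set 2 alone (0.0373). It did not pass in set 1 alone (0.207), and its adjusted p was 0.368 without PBS replicate 1. The remaining 5 genes had differences between 0.80 and 1.17 and did not pass: Fcgr3, another IgG receptor, Fcer1g, the signalling chain shared by Fc receptors, Cybb, the membrane subunit of the NADPH oxidase, Trem1, an amplifier of inflammatory signals, and Clec4d, a C-type lectin. Fcgr3 had no overlap between groups, and the adjusted p of the 5 lay between 0.0930 (Cybb) and 0.334 (Clec4d).

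Neither transcription factor of the list passed. Cebpe, the C/EBP family member required for secondary granule genes, was at 5.37, 5.86, 5.87 and 5.48 in PBS replicates 1 to 4 and 5.92, 5.75, 6.19, 6.62 and 6.07 in G-CSF replicates 1 to 5. The change was 0.47 (SE 0.19, limma adjusted p = 0.447). Gfi1, a repressor needed for neutrophil maturation, was at 4.50, 4.88, 4.86 and 4.94 in PBS replicates 1 to 4 and 4.66, 5.40, 5.04, 4.98 and 5.15 in G-CSF replicates 1 to 5, a change of 0.25 (SE 0.17, adjusted p = 0.796). In both genes the groups overlapped by 1 G-CSF array.

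Promoters of the list were searched for letters bound by 2 factors of the granulocyte lineage. The windows were the 250 bases before each RefSeq start (GRCm38.p6), present for 31 of the 35 genes in 34 windows, some genes having more than 1; Cebpe, Itgb2, Mmp9 and Ncf4 had no entry. On both strands, GAGGAAG, a sequence bound by PU.1, was found in 15 of 34 windows (44.1%), against 10.6% of 32851 windows of all genes. TTGCNNAA, a form of the C/EBP site, was found in 9 of 34 (26.5%), against 9.56%. Windows were not matched for gene type or base composition, and these shares are a description. Whether these sites bear on the changes was not tested. Matches of the 2 motifs overlapped in 0 of the 34 windows. Of the genes that rose, Csf3r and Fcgr4 held GAGGAAG, while Stfa2, Stfa3 and Cd177 held neither motif and Mmp9 had no entry. Shown with matches in capitals are the windows of Csf3r, which rose, of the primary granule genes Mpo and Elane, and of Mmp8, which held both motifs, at chr4:126024409-126024658 (+), chr11:87793534-87793783 (+), chr10:79886062-79886311 (+) and chr9:7558179-7558428 (+).
Csf3r: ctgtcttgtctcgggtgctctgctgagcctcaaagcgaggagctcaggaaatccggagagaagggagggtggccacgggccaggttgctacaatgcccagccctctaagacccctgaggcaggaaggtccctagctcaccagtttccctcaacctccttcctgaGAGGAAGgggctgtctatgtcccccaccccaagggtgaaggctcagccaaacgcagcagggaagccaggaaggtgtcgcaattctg
Mpo: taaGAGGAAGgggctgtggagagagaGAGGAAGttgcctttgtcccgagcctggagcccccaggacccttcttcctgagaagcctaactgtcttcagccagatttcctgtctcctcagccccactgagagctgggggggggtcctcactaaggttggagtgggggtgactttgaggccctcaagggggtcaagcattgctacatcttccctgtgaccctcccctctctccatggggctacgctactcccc
Elane: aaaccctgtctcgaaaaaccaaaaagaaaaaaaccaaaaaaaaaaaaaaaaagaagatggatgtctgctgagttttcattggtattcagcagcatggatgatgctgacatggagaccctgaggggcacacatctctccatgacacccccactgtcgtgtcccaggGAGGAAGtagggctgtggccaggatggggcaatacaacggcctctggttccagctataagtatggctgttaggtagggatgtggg
Mmp8: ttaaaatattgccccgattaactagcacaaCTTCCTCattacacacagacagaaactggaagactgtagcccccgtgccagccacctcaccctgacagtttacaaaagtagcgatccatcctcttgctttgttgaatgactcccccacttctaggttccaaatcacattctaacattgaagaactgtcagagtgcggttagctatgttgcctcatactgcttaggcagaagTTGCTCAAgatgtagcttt
In Mmp8 the first match is GAGGAAG on the opposite strand and the second is TTGCNNAA.

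Part of the list is not specific to neutrophils. Of the 35 genes, 12 were listed as also made by monocytes or macrophages (such as Lyz2, Itgam, Cybb and Fcgr3). These 12 had a median change of 1.03 and 1 risen (Fcgr4). The other 23, some of which those cells may also make, had a median of 0.99 and 5 risen. Among 22 measured markers of monocytes and macrophages outside the list, 0 rose and 0 fell in limma (3 at an unadjusted p under 0.05), with a median of -0.03 and a summed linear intensity of 847 to 1235 in PBS and 850 to 1026 in G-CSF. Of these markers 11 were above 0 and 11 below, with changes from -0.79 to 0.51. Without PBS replicate 3, 2 of them fell, and 0 did in the other fits that left out 1 array. Of 12 pan-leukocyte genes 2 rose (Cd52 and Spi1), 0 fell and 11 were above 0, with a median of 0.71 and a sum of 1616 to 2987 in PBS and 2486 to 4950 in G-CSF. The count of 2 lay between 0 (without PBS replicate 1 or 4, or G-CSF replicate 1 or 3) and 6 (without G-CSF replicate 2). The list itself summed to 9832 to 22727 in PBS and 15811 to 25667 in G-CSF, and its 12 defining neutrophil markers to 7019 to 17574 in PBS and 12240 to 19182 in G-CSF, with 1 of the 12 risen (Csf3r).

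Markers of other blood cells had medians at or below the median over all probe sets, except for T and NK cell genes. Of 13 erythroid genes 3 fell (median -0.52, sum 445 to 1052 in PBS and 327 to 412 in G-CSF), and of 15 B lineage genes 3 fell (median -0.55, sum 445 to 616 in PBS and 331 to 418 in G-CSF). These calls did not hold together when 1 array was left out: 0 erythroid genes fell without PBS replicate 1 or 4 or G-CSF replicate 1, 2 without PBS replicate 2 or 3, and 1 in the other fits. For B lineage genes the count was 0 without PBS replicate 4 or G-CSF replicate 1, 2, 3 or 4, 2 without G-CSF replicate 5, and 1 in the other fits. Eosinophil, basophil and mast cell genes had a median of -0.20 with 0 of 15 called in limma and 3 at an unadjusted p under 0.05 (sum 315 to 573 in PBS and 295 to 418 in G-CSF). T and NK cell, megakaryocyte and endothelial lists of 12, 7 and 12 genes had medians of 0.04, -0.03 and -0.13, with 0 called in limma and 0, 0 and 2 at an unadjusted p under 0.05. No marker was at 0 in any array, and these values carry no detection call. The part of granulocytes left in the sort in the result was not tested.

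**Figure D4:**
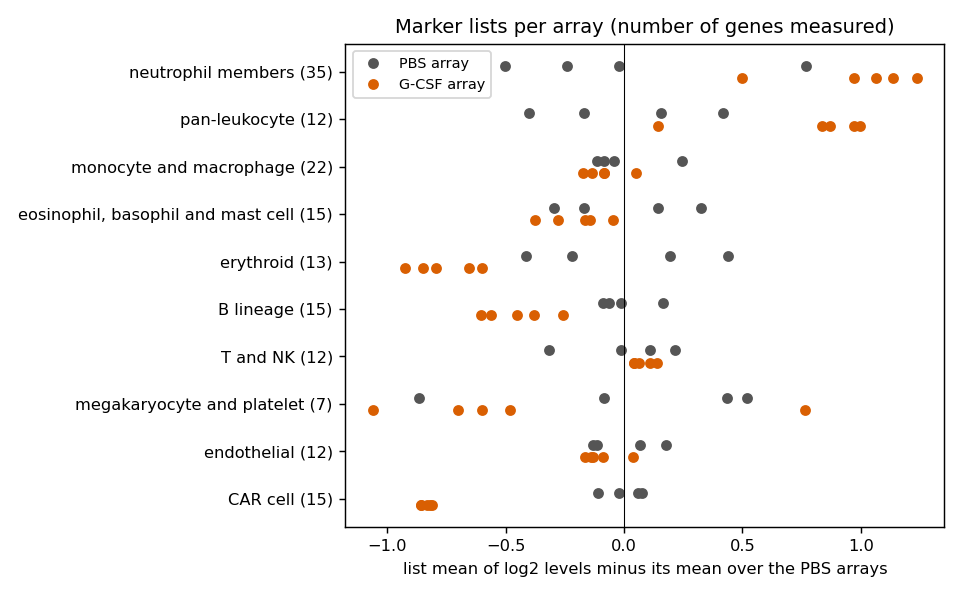
Mean log2 level of each marker list per array, minus that list's mean over the PBS arrays, with the number of genes measured in brackets; grey points are PBS arrays and orange points G-CSF arrays. The neutrophil and pan-leukocyte lists are higher in most G-CSF arrays, monocyte and macrophage markers overlap, and erythroid, B lineage and CAR cell lists are lower.

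Of 38 measured granulocyte genes outside the list, 35 were above 0. At the threshold 6 rose, 1 fell and 31 did not pass, with a median change of 0.62. Ctsc, the protease that activates the granule serine proteases, rose 3.59-fold, from 6.44 ± 0.56 to 8.29 ± 0.25 (limma adjusted p = 0.00181). Csf2rb, the shared receptor chain for GM-CSF and IL-3, rose 2.65-fold (adjusted p = 0.00304). Ifitm6 (1.91, adjusted p = 0.0195), Lrg1, a secreted glycoprotein that is also an acute phase gene (1.48, 0.0257), the decoy interleukin-1 receptor Il1r2 (1.21, 0.0264) and the inhibitory receptor Pirb (0.79, 0.0453) also rose. The member that fell was Cebpa (-0.77, adjusted p = 0.0143), a transcription factor of both granulocytes and adipocytes. The calls of Ctsc and Csf2rb held in all 9 fits that left out 1 array, that of Cebpa in 8 (lost without PBS replicate 1, at 0.0514), Ifitm6 in 6, Il1r2 in 4, Lrg1 in 2 and Pirb in 1, with adjusted p up to 0.143 for Pirb without PBS replicate 2.

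By function, the NADPH oxidase list had 0 of 5 genes risen (median 0.88, 3 at an unadjusted p under 0.05), led by Ncf1 and Cybb. Type 1 stefins had 2 of 4 measured genes risen, Stfa2 and Stfa3, and 3 of 4 above 0. Fc receptors had 1 of 5 risen, Fcgr4, with all 5 above 0 (median 0.80). Leukocyte integrins had 0 of 6 risen in limma (2 at an unadjusted p under 0.05, Itgam and Itgb2) and a median of 0.28. Transcription factors of granulopoiesis went both ways, with 6 of 12 above 0 and a median of 0.01. Of these, Spi1, which encodes PU.1, rose 2.23-fold (limma adjusted p = 0.0312), with levels of 6.34 ± 0.55 (n = 4) in PBS and 7.50 ± 0.26 (n = 5) in G-CSF, and Cebpa fell as given above. The Spi1 call was lost without any 1 of PBS replicate 1 or 4 or G-CSF replicate 1, 3, 4 or 5, at adjusted p up to 0.0971 (without PBS replicate 4).

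Within the array sets the list was higher after G-CSF in both. The median change was 0.76 in set 1, where 33 of 35 genes were above 0 (Camp and Ly6g were below), and 1.17 in set 2, where all 35 were. Set 1 alone called 1 gene, Stfa3, against 0.330% of all probe sets, and set 2 alone called 4 (Stfa2, Stfa3, Cxcr2 and Trem1), against 0.170%. With the set as a block 11 genes passed, against 1.32% of all probe sets: the 6 above with Mmp8, Pglyrp1, Ncf1, Cxcr2 and Cybb. A test of the difference between the sets, chosen after the data were seen, called 0 of the 35 genes in limma (0 at an unadjusted p under 0.05) and 0 of 21789 probe sets (1234 at an unadjusted p under 0.05).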

How the data were processed

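The 9 arrays were taken as 9 samples, 4 PBS and 5 G-CSF, grouped by their titles. The deposited intensity values are linear and were made by the authors with the Expression Console software of Affymetrix by RMA, as the submitters' processing notes name them; versions and genome build are not given in the sources used here. They carry no background or detection call, and the number of arrays limits the precision. Log2 of each value was fitted with limma 3.58.1 (R 4.3.3, two-sided) over the 21789 probe sets with 1 symbol (1621 had several and 12143 none), with no filter on low values and Benjamini-Hochberg adjustment.

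The 35 measured genes and all gene lists were chosen with earlier results of these data known. Values in every array are given for genes past the threshold, the 2 genes of smallest p in each role group and a fixed list of well-known granule and surface genes. Lists are described by counts and medians, with no test. Gene names were checked against RefSeq (GRCm38.p6); promoters were aligned with mafft 7.526. On simulated data with 50 genes per size among 21789, the G-CSF against PBS fit recovered 10% at a log2 change of 0.5, 46% at 1, 86% at 1.5 and 98% at 2, with 9 false calls. The simulated noise was independent between genes and arrays, with no array sets, and the changed genes were drawn from all probe sets. The median PBS SD was 0.28 over all probe sets and 0.64 over the list, so these figures need not hold for the list. Alternatives covered the probe sets tested, normalisation, weights, blocks, array sets, threshold, pseudocount and leaving out each array. No 2 arrays were duplicates. The closest pair was G-CSF replicates 4 and 5 (correlation 0.988, next PBS replicates 1 and 2 at 0.982), and 1 alternative averaged that closest pair.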

Additional observations from a re-analysis of the deposited data

Results flagged for a closer look

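For 44 items, which were single genes and the mean of the list, the highest and lowest array of each group were compared with the nearest other array. Of 88 groups 8 held an array that stood apart, where chance gives about 1 in 20. The checks share the same arrays, so they are not independent. Ngp was at 9.70 in G-CSF replicate 2, where the nearest other G-CSF array was at 10.57. Lyz2 was at 9.22 in the same array (nearest 10.25), and Csf2rb at 6.21 there, below the other 4 G-CSF arrays. Mmp8 was at 6.21 in PBS replicate 1 (nearest 7.48), and Padi4 at 4.02 there (nearest 4.76). Stfa3 was at 4.79 in PBS replicate 2 (nearest 3.85). Fcgr3 was at 7.35 in G-CSF replicate 3 (nearest 6.29), and Il1r2 at 4.53 in PBS replicate 3 (nearest 5.25).

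Stfa1 was measured only by a probe set that the platform also assigns to the stefin genes Cstdc5 and Cstdc6, which entered no comparison above. It was at 4.11, 6.15, 4.46 and 6.21 in PBS replicates 1 to 4 and at 9.84, 8.78, 9.65, 8.23 and 8.65 in G-CSF replicates 1 to 5. The change of 3.79 (SE 0.51, limma adjusted p = 0.0115 over 35553 probe sets) exceeded those of Stfa3 and Stfa2, and the groups did not overlap. Which of the 3 genes gave the signal was not tested. A second probe set, shared by Stfa2 and Stfa2l1, had a difference of 1.86 (limma adjusted p = 0.243) with overlapping groups.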

How the results depend on the processing

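The counts depended on the setting and the medians less so. Probe sets called went from 353 to 181 with all probe sets tested, 180 with a replicate block, 598 with the array set as a block, 202 in set 1 alone, 59 in set 2 alone and 149 at an adjusted p under 0.01, and to between 210 and 318 when 1 array was left out. Genes of the list that rose numbered 6 in the main fit, given here with the percentage of all probe sets that rose (0.743%). The count was 2 with all probe sets tested (0.245%) and 2, Mmp9 and Stfa3, with a replicate block (0.39%). It was 11 with the set as a block (1.32%), 1 in set 1 alone (0.33%) and 3 with G-CSF replicates 4 and 5 averaged (0.519%). At an adjusted p under 0.10 it was 11 (1.1%), and under 0.01 it was 2 (0.344%). When 1 array was left out it lay between 2 and 13 (0.482% to 0.716%). Genes of the list without overlap went from 9 (2.18% of all probe sets lay above) to 33 in set 2 alone, where 20.5% did, and to between 9 and 21 when 1 array was left out, where between 2.57% and 4.13% did (3.01% for the 21, without PBS replicate 2). With a pseudocount of 16, 4 genes of the list rose (Stfa2, Stfa3, Csf3r and Cd177), where 0.776% of all probe sets rose. In limma 0 genes of the list fell under any alternative run. The median change of the list stayed between 0.76 and 1.21 in the array sets, with either block and with each array left out. Camp reversed to -0.51 with array weights and -0.30 in set 1, and ranged from -0.26 to 0.86 when 1 array was left out. Ly6g reversed to -0.18 with array weights and -0.56 in set 1, and ranged from -0.21 to 0.48. What caused these shifts was not tested. Set 1, set 2 and the fits that left out 1 array had fewer samples, while the fit with array weights kept every array. The replicate numbers were not taken as pairs, because same-numbered arrays correlated at 0.281, 0.140, -0.282 and 0.352 after removal of group means. Of the 6 calls, those of Stfa3 and Stfa2 were kept whichever array was left out; with the replicate block the adjusted p of Stfa2 was 0.0815 and that of Stfa3 0.0162.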

Other observations

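Camp was the only 1 of the 35 genes for which all arrays of set 1 (9.29 to 10.70) lay above all arrays of set 2 (7.36 to 8.15), whatever the treatment. Of all probe sets, 5.89% were ordered this way and 8.35% the opposite way.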
